A study of Mus musculus with 21 samples.

Results

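RNA bound by PTBP1 was mapped in B cells by iCLIP. Inside the bodies of 48 genes, 1003 crosslink sites of the summed replicates had a site within 15 nt in every one of the 5 replicates. The sites were chosen by position and by replicate support. A site of the list that the authors called on the summed replicates was kept when it lay in exactly 1 protein-coding RefSeq gene span of 10 to 300 kb and more than 2 kb from both ends of that span. It also needed a site on the same strand within 15 nt in each of the 5 replicate lists. Of the 244659 sites of the pooled list, 158030 sites in 5271 genes met the conditions on position, and the 1003 supported sites were 0.635% of these. The number of replicate lists with a site, and hence how often a site was seen, chose the sites, so their heights, spacing and genes are described below without a test.

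The study compared germinal centre B cells of C57BL/6 mice with and without PTBP1. Control mice had the genotype CD79a+/+Ptbp1fl/fl, with both Ptbp1 alleles flanked by loxP sites and no Cre. Conditional knockout (cKO) mice were CD79acre/+Ptbp1fl/fl, so that Cre made from 1 Cd79a allele deleted Ptbp1 in the B lineage. Effects of the changed Cd79a allele and of Ptbp1 loss cannot be told apart, since only the cKO mice carry Cre. At 7 days after immunisation with NP-KLH in alum, light zone (LZ) and dark zone (DZ) cells were sorted from spleen pools of 3 to 5 mice of 1 genotype and sex, which gave 4 RNA libraries in each of the 4 groups. Sort days 1 and 2 were male pools and sort days 3 and 4 were female pools. The iCLIP libraries were of other cells, namely splenic B cells of female mice treated with lipopolysaccharide for 48 h, with no genotype given. Nothing in the labels says whether the 5 iCLIP replicates came from separate mice or cultures, so the spread between them may be technical.

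PTBP1 (polypyrimidine tract binding protein 1) is an RNA-binding protein with several RNA recognition motifs that bind stretches of U and C, many of them in introns near regulated exons. It is known as a repressor of exon inclusion, and also acts on polyadenylation, RNA stability and translation. In iCLIP, reverse transcription tends to stop at the crosslinked base, so each cDNA marks 1 position, and random bases in the barcode allow PCR copies to be removed. Sites that lie side by side are usually read as 1 binding region.

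Sequence could be read at few of the supported sites, because only the 300 bases around gene starts in RefSeq (GRCm38.p6) were at hand. The only supported sites in such a window were the 2 of Dennd4a, a gene that encodes a guanine nucleotide exchange factor for Rab10, and the higher of them is set beside the best supported site of each of the 4 other genes with a site of 2 or more lists in such a window. Each line gives 29 bases of the strand of the crosslinked RNA as DNA letters, with the site at base 15. Capitals mark TCTT, the core of a classical PTBP1 motif, or GGTGAG, which contains the start of a consensus donor splice site.
Dennd4a, 5 lists, chr9:64811569-64811597, plus strand, 33 cDNAs: gcgggggccggcggggaGGTGAGtggcgg
Enah, 4 lists, chr1:182020124-182020152, minus strand, 3 cDNAs: ccgtggccgcaccgccgcctcgcctcggc
Coro2a, 2 lists, chr4:46566492-46566520, minus strand, 7 cDNAs: tggaactttctgctttagaatgttctagt
Runx1, 2 lists, chr16:92762214-92762242, minus strand, 6 cDNAs: TCTTttcctttTCTTtcctTCTTtcTCTT
Far1, 2 lists, chr7:113565180-113565208, plus strand, 3 cDNAs: tggaaaacatggTCTTttgggttctactg
The Dennd4a window held 20 G and 2 T among 29 bases, and GGTGAG began 3 nt after the site. It lay in the promoter window of the antisense lncRNA gene Gm36459, 523 nt past the promoter window of Dennd4a itself. The Runx1 window was all pyrimidine, with 20 T and 9 C.

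Over all sites in these windows, those with little support were pyrimidine-rich. The 126 gene-body sites with 0 to 3 supporting lists, in 35 genes, had 45.6% T and 72.7% pyrimidine within 14 nt, and TCTT lay in 89 of them (70.6%) in 27 genes. Of 32817 promoter windows of RefSeq, cut to the same 29 bases in their middle, 11.02% held TCTT on the promoter strand and 21.7% on either strand, and 22.8% of bases were T and 49.6% pyrimidine. The 6 sites with exactly 4 lists were all in Enah and had no TCTT, as did the 2 of Dennd4a. GGTGAG, which was not among the motifs planned beforehand, was in both Dennd4a windows. These overlap in 1 gene, so no enrichment can be read from them. Of the promoter windows, 0.893% held GGTGAG on the promoter strand and 1.83% on either strand. These windows are near gene starts and hold 2 of the 1003 sites, so the bases at the remaining supported sites were not examined here.

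Libraries differed in depth. The iCLIP replicates held 17573, 28829, 6211, 45505 and 23100 sites, with 30782, 51904, 13055, 82478 and 41374 cDNAs. Replicate 3 was the shallowest, and of the 3120 gene-body sites with exactly 4 lists, 2674 lacked a site in replicate 3. Gene counts of the RNA libraries summed to between 26823882 and 34240096. Ptbp1 lay between 353 and 486 CPM (counts scaled to library size by TMM) in the 8 control libraries and between 82.5 and 121 CPM in the 8 cKO libraries, and its paralogue Ptbp2 between 8.60 and 19.3 CPM in control and between 126 and 290.4 CPM in cKO libraries, with no overlap in either case. The summed CPM of 6 B cell markers was 28405 to 33007 in LZ control and 28295 to 33787 in LZ cKO libraries, and 18464 to 21223 and 17464 to 20850.0 in the dark zone. The 4 plasma cell markers summed to 1198 to 1959 CPM in LZ control and 1118 to 2093 CPM in LZ cKO, with 2 of 4 at higher fitted levels in cKO. In the dark zone they summed to 2581 to 7537 CPM in control and 2261 to 10613 CPM in cKO, with all 4 higher. The 6 germinal centre B cell markers summed to 1417 to 1885 CPM in LZ control and 1313 to 2124 CPM in LZ cKO. In the dark zone they summed to 2045 to 2481 CPM in control and 1995 to 2497 CPM in cKO. Of the 5 that were tested, 2 had higher fitted levels in cKO in each zone. Markers of the remaining cell types stood at much lower levels than those of B cells, with fitted values mostly above control in cKO. The 5 dendritic cell markers summed to 53.0 to 75.7 CPM in LZ control and 115 to 149.97 CPM in LZ cKO. Of these 5, 3 had higher fitted levels in LZ cKO and 1 was called by edgeR. All 6 macrophage, all 6 T cell and all 5 NK cell markers had higher fitted levels in cKO in both zones, with sums that overlapped between the groups in each zone. In the dark zone all 6 neutrophil and all 4 erythroid markers had higher fitted levels. Their part in the RNA differences below was not tested.

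Support by more lists went with fewer and higher sites. The gene-body sites with 0, 1, 2, 3, 4 and 5 supporting lists numbered 79593, 52648, 15284, 6382, 3120 and 1003. Sites with a single pooled cDNA made up 77.1% of those with no list, 52.0% of those with 4 and 32.7% of those with 5, which is 328 sites. The median height was 3 cDNAs (quartiles 1 and 7) with all 5 lists and 1 in every other class. Of the supported sites, 205 had 10 or more cDNAs and 29 had 100 or more. Strand differed too, mostly through Clec2g. Where RefSeq gave the strand of the gene, 99.5% of the sites with no list were sense, against 91.0% with 4 lists and 85.5% with 5, where 115 of 792 were antisense in 4 genes. Clec2g held 210 of the 227 antisense sites with 4 lists and 78 of the 115 with 5. Without it (an alternative chosen after seeing the data) 0.353% of sites with no list, 0.734% with 4 and 5.18% with 5 (37 of 714) were antisense. The remaining 211 supported sites lay in 8 genes whose strand was not at hand.

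**Figure D1:**
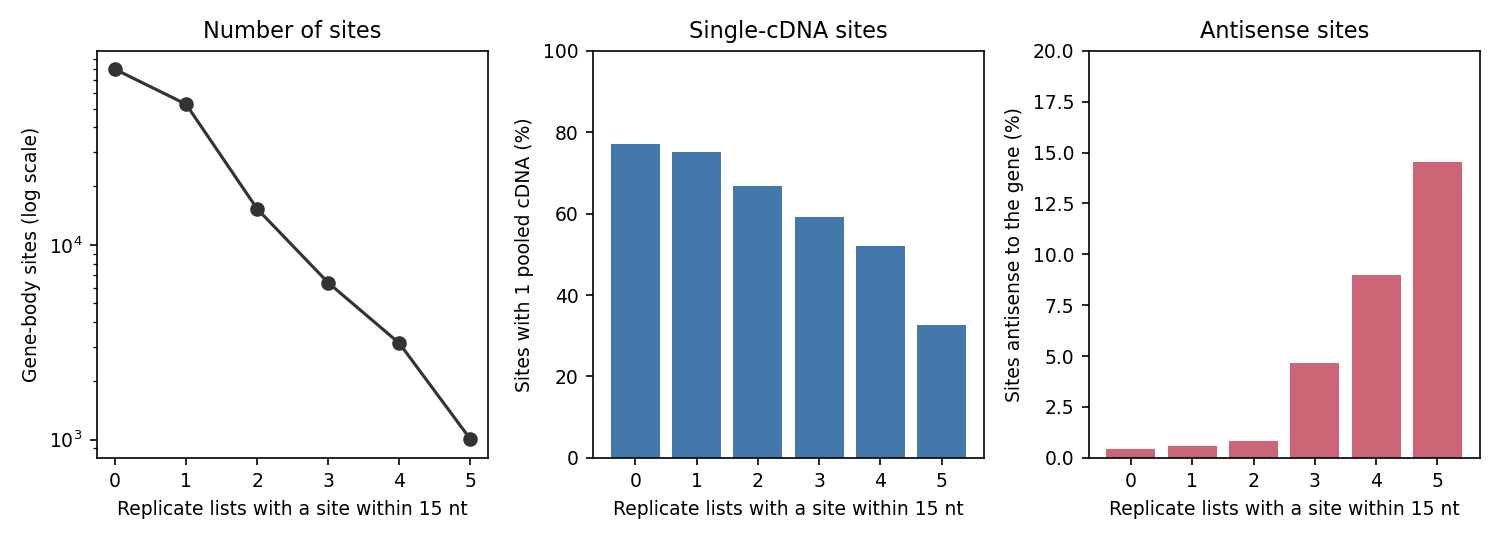
Gene-body sites by the number of replicate lists with a site on the same strand within 15 nt (x axis, 0 to 5). The number of sites (left, log axis) falls from 79593 to 1003, the percentage with a single pooled cDNA (middle) from 77.1% to 32.7%, and the percentage antisense to their gene (right) rises from 0.454% to 14.5%, or to 5.18% without Clec2g.

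The supported sites were packed closely. With gaps of up to 30 nt they formed 57 clusters, a number that was 58 with gaps of 15 nt and 54 with gaps of 100 nt, and 42 of the 48 genes had a single cluster. The median cluster held 13 sites over 25 nt and the widest spanned 121 nt. In 43 clusters more than 50% of the nucleotides held a supported site, and in 12 every nucleotide did. A pooled site at the very next nucleotide was listed for 88.7% of supported sites and 42.0% of the other gene-body sites. The median distance of a cluster from the nearer end of its gene span was 12798 bp, and 17 clusters were within 5 kb. Spans alone were at hand, so exons, introns and UTRs could not be assigned.

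One cluster held most of the cDNAs. Eif4g2 encodes a translation initiation factor related to eIF4G. A run of 65 sites in this gene at chr7:111076101-111076165, minus strand, one at every nucleotide, carried 9981 of the 16013 cDNAs of all supported sites (62.3%). Its highest site had 972 cDNAs, and the 10 highest supported sites, from 281 cDNAs up, were all in it. This run lies inside LOC115486847, a snoRNA gene of 168 nt in RefSeq at 111076060 to 111076227. SnoRNAs are short nuclear RNAs, often made from introns, that guide chemical modification of other RNAs. In replicates 1 to 5 the run and the 15 nt on either side held 3414, 2462, 340, 2592 and 1930 cDNAs, and the highest single position held 246, 228, 64, 223 and 222. A barcode with 4 random bases can tell 256 molecules apart at a position, so 4 replicates were close to that ceiling and the true ratio between positions there may be larger.

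A further 3 clusters lay over other small RNA genes of RefSeq. The 16 sites of Hhat, a gene for an acyltransferase of Hedgehog proteins, overlapped the snRNA gene Gm22265 on the strand opposite to Hhat, with 250 cDNAs. The 10 sites of Npas1, which encodes a neuronal transcription factor, overlapped the 5S rRNA gene n-R5s151, also opposite to Npas1, with 200 cDNAs. The 5 sites of Lrch3 overlapped n-R5s33, a 5S rRNA gene, with 62 cDNAs. Together the 4 clusters held 96 sites, 9.57% of the total, and 10493 cDNAs, 65.5% of the total. Without them 907 sites in 44 genes remained (an alternative chosen after seeing the data), with 5520 cDNAs and a median height of 2.

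**Figure D2:**
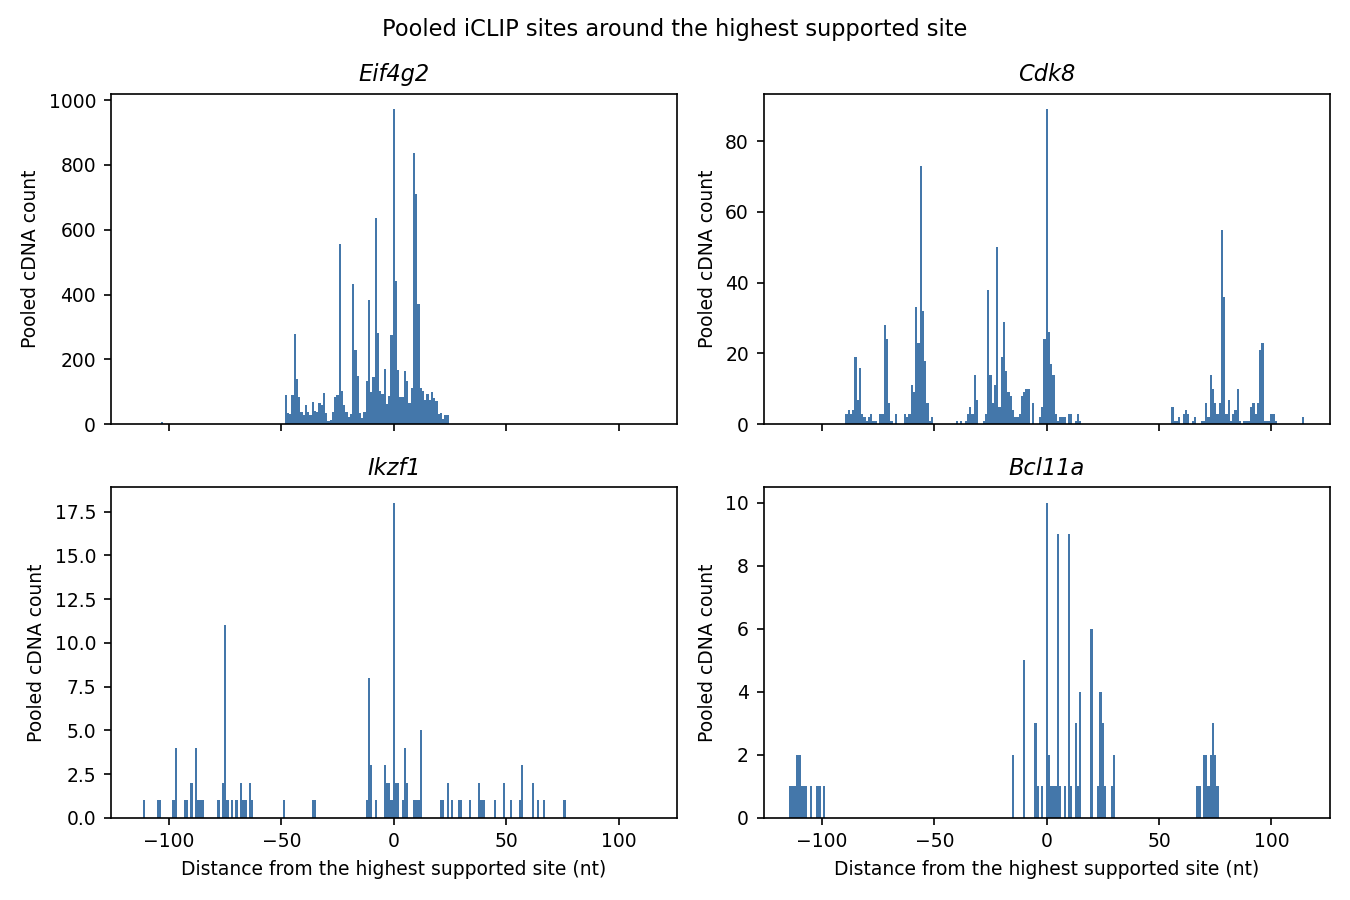
Pooled cDNA count (y axis, its scale differs between panels) at each nucleotide within 120 nt of the highest supported site (x axis, positive towards the 3' end of the crosslinked RNA) in 4 genes. Eif4g2 forms a single block up to 972 cDNAs, Cdk8 several groups with 89 at the top, and Ikzf1 and Bcl11a scattered sites of at most 18 and 10 cDNAs.

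Cdk8, the gene of a kinase of the Mediator complex that links transcription factors to RNA polymerase II, had the most supported sites. Its 215 sites (21.4% of the total) fell in 3 neighbouring clusters of 81, 42 and 92 sites that spanned 350 nt, or 0.486% of the gene. They were on the strand of the gene and overlapped no other RefSeq gene. The clusters held 848, 268 and 390 cDNAs, and the highest site had 89. In the cluster of 81 sites the replicates held 51, 235, 70, 307 and 185 cDNAs, or 1.66, 4.53, 5.36, 3.72 and 4.47 per 1000 cDNAs of their list. Replicate 1 was thus the lowest and replicate 3 the highest once scaled.

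Other genes with many sites were of mixed kind. Clec2g, a C-type lectin gene, had 78 sites in 4 clusters over 6807 nt, all on the strand opposite to the gene and inside the lncRNA gene Gm15987. Vmp1, which encodes a membrane protein of the endoplasmic reticulum needed for autophagy, had 44 sites in 2 clusters within 132 nt and 109 cDNAs. A630001G21Rik had 38 sites in 2 clusters that lay 12503 nt apart from end to end. Ttyh1, a gene of the tweety membrane protein family, had 27 sites in 29 nt with 880 cDNAs, and its highest site had 276, the highest outside Eif4g2. The Ttyh1 cluster overlapped the lncRNA gene D030047H15Rik.

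Transcription factor genes of B cells followed. Zeb2, a zinc finger repressor that acts in several blood lineages, and Ikzf1, the gene of the lymphoid factor Ikaros, each had 25 sites in 2 clusters. Bcl11a, needed early in B cell development, and Pou2f2, the gene of the B cell factor Oct-2, each had 24 sites in a single cluster. All were on the strand of their gene and low. The Zeb2 clusters held 58 and 46 cDNAs, the Ikzf1 clusters 63 and 7, and those of Bcl11a and Pou2f2 held 72 and 62, with highest sites of 18, 18, 10 and 8 cDNAs. In the larger Ikzf1 cluster the replicates held 6, 26, 5, 22 and 10 cDNAs, in that of Bcl11a 4, 38, 6, 13 and 9, and in that of Pou2f2 14, 16, 2, 21 and 18. Support by replicate 3 rested on 5, 6 and 2 cDNAs in these genes. At the other extreme Mbnl1, which encodes the splicing regulator muscleblind-like 1, entered through 1 site of 1 pooled cDNA, with 2, 3, 1, 3 and 1 cDNAs within 15 nt in the replicates. Its gene body held 1111 sites with 1744 cDNAs in the pooled list, and 115 of these sites had 4 or more lists.

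The genes differed widely in the share of their sites that all replicates supported. In 16 genes the supported sites were 50% or more of all gene-body sites. They were 87.0% in Cdk8 (215 of 247), 93.1% in Ttyh1, 94.1% in Hhat and 73.0% in Eif4g2, and 100% in Npas1, Stard9, Zfp811, Dapk1, Vmn2r7, Pgap6, Slc5a11 and Ccdc162, which held between 3 and 11 sites each. In the other 32 genes the share was lower, and in long B cell genes with many sites it was small. It was 2.64% in Zeb2 (25 of 947), 5.32% in Ikzf1 (25 of 470), 2.71% in Bcl11a (24 of 886) and 6.65% in Pou2f2 (24 of 361). It was 1.61% in Ptprc (13 of 807), the gene of the phosphatase CD45, 1.21% in Bank1 (13 of 1078), an adaptor of B cell receptor signalling, and 1.26% in Man1a (11 of 871), a mannosidase of the Golgi. Over the 48 genes the median number of gene-body sites was 86.5, against 9 over all 5271 genes, and 16 were among the 100 genes with the most sites.

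RNA level, a measure the rule did not use, is given for both kinds of gene without a test. Of the 16 genes with a high share, 3 had too few counts to be tested and 8 of the other 13 had mean levels under 5 CPM in all 4 groups of germinal centre cells. Of the 32 genes with a low share, 1 was not tested and 1 of the 31 others, Clec2g, was under 5 CPM throughout. The median of the highest group mean was 2.68 CPM in the first kind and 212 CPM in the second. CPM is not scaled to length, and the iCLIP cells were cultured cells of another kind, so the RNA level where PTBP1 was crosslinked was not measured.

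**Figure D3:**
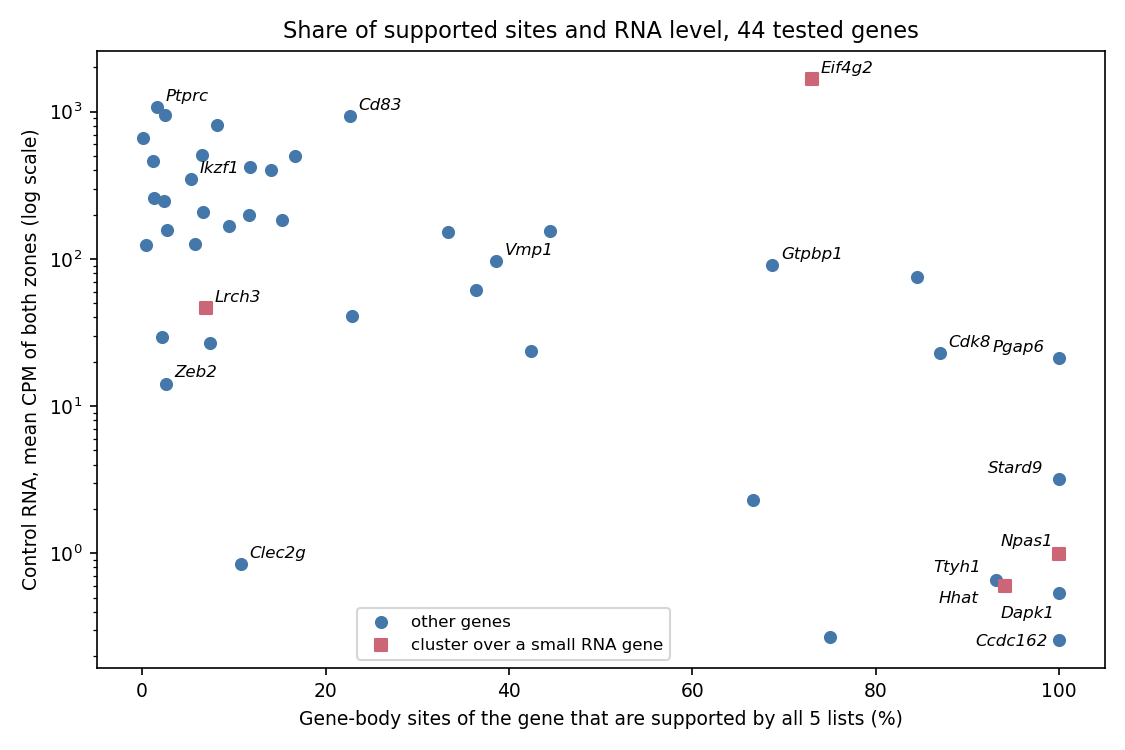
Each point is 1 of the 44 tested genes, by the share of its gene-body sites that all 5 lists supported (x axis, %) and its mean RNA level over both control groups (y axis, CPM, log scale); squares mark the 4 genes with a cluster over a small RNA gene. Genes such as Ptprc and Ikzf1 sit at the upper left, and genes such as Ttyh1, Hhat and Dapk1, with shares above 90%, sit near or under 1 CPM.

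Replicates ranked the clusters alike to a varying degree. Over the 57 clusters the Spearman correlation of cDNA counts was between 0.377 and 0.761 for the 10 pairs of replicates, as a description of clusters chosen for being present in all. The clusters and the 15 nt around them took 13.7%, 7.72%, 6.61%, 5.84% and 7.76% of the cDNAs of replicates 1 to 5. Outside Eif4g2 they took 2.63%, 2.98%, 4.01%, 2.69% and 3.10%. The high share of replicate 1 therefore lay in Eif4g2, where it held 110.9 of every 1000 cDNAs, against 26.04 to 47.4 in the others. Replicate 3 had the highest scaled value in 29 of the 57 clusters and the lowest in 9. It was the shallowest list, and the rule kept no cluster without a site in it, so its scaled values are not free of the choice. A site at the very same nucleotide in all 5 lists was present for 129 supported sites in 33 genes, with a median of 31 cDNAs, while for 10 supported sites no replicate list held the nucleotide itself.

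**Figure D4:**
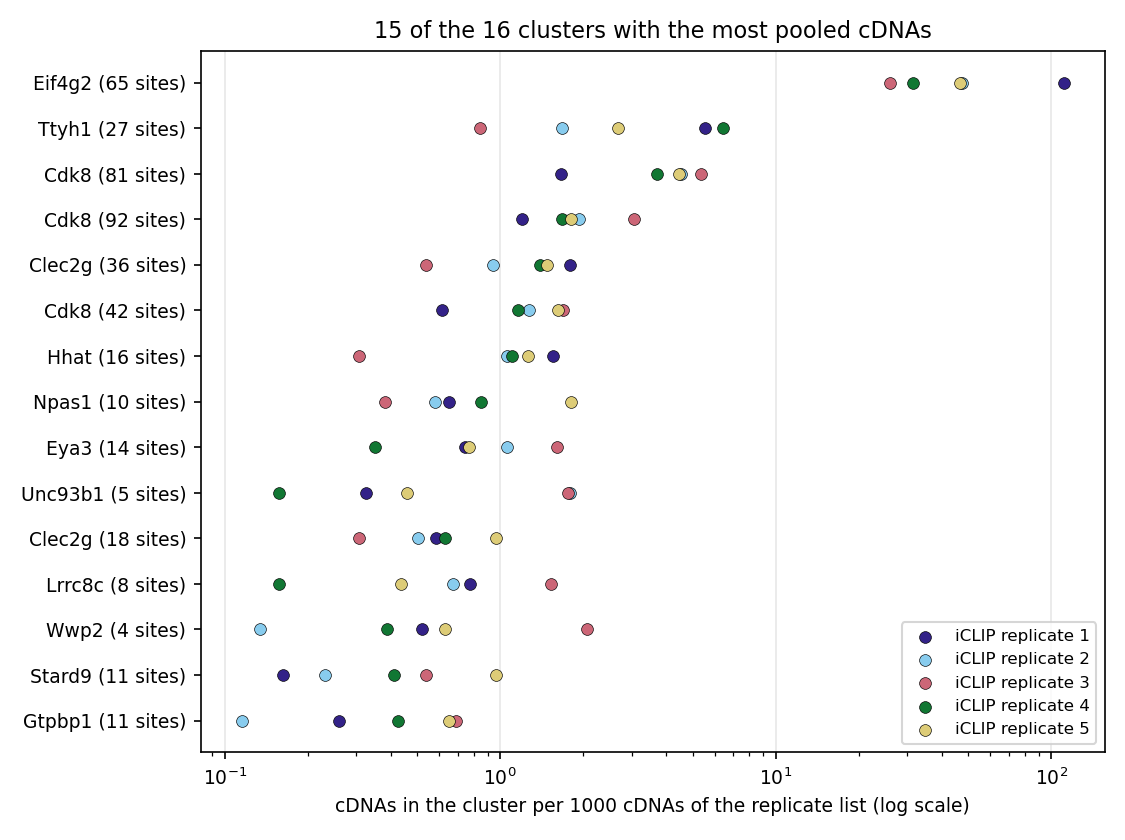
cDNAs in each of 15 clusters among the 16 with the most pooled cDNAs and the 15 nt around it, per 1000 cDNAs of the replicate list (x axis, log scale), with 1 point per iCLIP replicate. Eif4g2 stands at 26.04 to 110.9 per 1000 and all others under 10, and replicate 3 is lowest for Ttyh1, Hhat, Npas1 and both Clec2g clusters and highest for the 3 Cdk8 clusters.

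The limits of the rule passed through a continuous range. At 13 to 15 nt from the farthest replicate site there were 70 sites in 24 genes (median 2 cDNAs, highest 87), and at 16 to 18 nt, just outside, 79 sites in 24 genes (median 1, highest 139). The supported site nearest a span end was in Srrm2, at 2171 bp, and the nearest one left out was in Cd38, at 1758 bp. Without the limits on spans and ends 1515 sites had all 5 lists. Of these, 279 were within 2 kb of an end, 251 in spans over 300 kb and 78 in spans under 10 kb. Support in at least 4 lists gave 4123 sites in 198 genes, and leaving out replicate 3 gave 3677 sites in 165 genes, so both counts rest on that shallow library.

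Of 421 genes in 8 lists of pathways, 316 had a gene-body site and 11 (3.48%) had a supported one, against 0.911% of all genes with a gene-body site. List genes had been picked with results of these data known. B cell transcription factors had 4 of 37 (Zeb2, Ikzf1, Bcl11a and Pou2f2), and RNA-binding proteins 3 of 52. These 3 were Mbnl1, Srrm2, a scaffold protein of the spliceosome, and Srsf11, a serine- and arginine-rich splicing factor. B cell receptor signalling had 2 of 43 (Ptprc and Bank1), cytoskeleton and adhesion 1 of 47 (Swap70, an actin-binding signalling protein of B cells) and chromatin 1 of 60 (Chd2, a chromatin remodeller). NF-kB genes had 0 of 21 and cell cycle genes 0 of 51. Of 10 known PTBP1 targets with gene-body sites, Mbnl1 alone had a supported one.

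The RNA of the 48 genes was then compared between cKO and control cells, a measure that had no part in choosing them. The counts are of polyadenylated RNA per gene, so a change in splicing that leaves the total alike is not seen. In a sorted pool, fewer cells of a type and less RNA per cell cannot be told apart. Of the 48 genes, 44 passed the filter on low counts, and Slc5a11, Vmn2r7, Zfp791 and Zfp811, with 32, 0, 82 and 1 reads over 16 libraries, did not.

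No supported gene changed at an adjusted p under 0.05 in the main test (edgeR quasi-likelihood, Benjamini-Hochberg over 15789 genes). In the light zone 0 of 44 were called, against 1.08% of all tested genes, and in the dark zone 0 of 44, against 0.627%. Before adjustment, the edgeR p was under 0.05 for 11 of 44 in the light zone, where the share over all genes was 13.4%. Of these 9 were higher in cKO (7.09% of all genes) and 2 were lower (6.33%). In the dark zone it was 8 of 44 (11.4% of all genes), with 4 higher (6.67%) and 4 lower (4.69%). DESeq2 called 1 supported gene in the light zone (2.36% of the 24780 genes for which it gave a p) and 4 in the dark zone (1.98%). With the sort day as a block, edgeR called 3 in the light zone (5.5% of all genes) and 4 in the dark zone (3.27%).

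The median log2 fold change of the 44 genes, cKO minus control, was 0.09 in the light zone and 0.00 in the dark zone, against 0.02 and 0.01 over all tested genes. Over the 4 sort days the light zone median was 0.05, 0.11, 0.13 and 0.02 and the dark zone median 0.08, 0.00, 0.08 and -0.12. The light zone median was 0.01 without the 4 genes over small RNA, 0.03 without LZ control replicate 1 and 0.04 without LZ cKO replicate 2 or replicate 4. All 4 LZ cKO libraries lay beyond all 4 control libraries for 8 supported genes (8.65% of all genes did so), and in the dark zone for 6 (6.38% of all genes). The 8 were Dennd4a, Ikzf1, Lrrc8c, Mbnl1, Pgap6, Ptprc, Srsf11 and Unc93b1, all higher in cKO, and the 6 were Zeb2 and Ogt, higher, and A630001G21Rik, Bcar3, Cd83 and Pou2f2, lower.

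Zeb2 had the strongest single result. In dark zone control libraries 1 to 4 it stood at 11.8, 10.1, 10.2 and 10.3 CPM and in the cKO libraries at 42.8, 43.4, 28.1 and 25.1 CPM, so that the groups did not overlap. The log2 fold change was 1.72 ± 0.385 (SE), with an adjusted p of 0.0604 in edgeR, 0.00878 with the sort day as a block and 0.000528 in DESeq2. Light zone values overlapped, at 23.2, 22.3, 10.8 and 15.2 CPM for control against 24.1, 55.5, 18.7 and 11.4 CPM for cKO (log2 fold change 0.62 ± 0.375, adjusted p = 0.526 in edgeR), and without LZ cKO replicate 2 the fold change was 0.01. The difference between zones was 1.10 ± 0.531 on the log2 scale, with an unadjusted p of 0.0552 in edgeR. Zeb2 is also known in macrophages, and the summed level of 6 macrophage markers, none of which was at 0 throughout, was 19.3, 382, 13.9 and 36.7 CPM in DZ control libraries 1 to 4 and 532, 1154, 39.6 and 347 CPM in DZ cKO. The markers and Zeb2 both had their highest dark zone values in DZ cKO library 2, at 1154 and 43.4 CPM. Both had their highest light zone values in LZ cKO library 2, at 458 and 55.5 CPM. In DZ control library 2 the markers were at 382 CPM with Zeb2 at 10.1 CPM, and in DZ cKO library 3 they were at 39.6 CPM with Zeb2 at 28.1 CPM. Summed levels of 5 dendritic cell markers did not overlap in either zone, at 61.1 to 73.0 CPM in DZ control against 77.3 to 114 CPM in DZ cKO. Fitted levels were higher in cKO for 3 of these 5 markers in the light zone and for all 5 in the dark zone. The part of such cells in the Zeb2 values was not tested.

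The other transcription factors with supported sites moved less. Ikzf1 stood at 398, 341, 331 and 377 CPM in LZ control and 428, 417, 441 and 457 CPM in LZ cKO libraries, with no overlap. Its log2 fold change was 0.27 ± 0.0862, with an adjusted p of 0.164 in edgeR, 0.0415 with the block and 0.0502 in DESeq2. Dark zone levels of Ikzf1 were 334, 351, 284 and 368 CPM for control against 417, 373, 364 and 365 CPM for cKO, which overlap, a log2 fold change of 0.18 ± 0.0862 (adjusted p = 0.441 in edgeR). Pou2f2 was lower in cKO on all 4 sort days in both zones. It stood at 286, 262, 209.9 and 201 CPM in LZ control against 261, 193, 137 and 169 CPM in LZ cKO, and at 202, 182, 149.7 and 166 CPM in DZ control against 148, 146, 109 and 122 CPM in DZ cKO. The groups overlapped in the light zone and not in the dark zone. The log2 fold changes were -0.34 ± 0.176 and -0.41 ± 0.177, with adjusted p of 0.435 and 0.37 in edgeR and of 0.026 and 0.0172 with the block.

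Bcl11a was at 201, 177, 159 and 212 CPM in LZ control and 219, 213, 199 and 216 CPM in LZ cKO libraries, which overlap, and its mean was 129 ± 14.8 CPM (SD, n = 4) in DZ control, with a log2 fold change of -0.01 ± 0.105. Over the whole list of B cell transcription factors, 55 of 56 genes were tested. Of these 1 rose in the light zone (Ikzf3), and 1 rose and 1 fell in the dark zone, none of them with a supported site. Over all tested genes, 1.08% were called in the light zone and 0.627% in the dark zone.

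**Figure D5:**
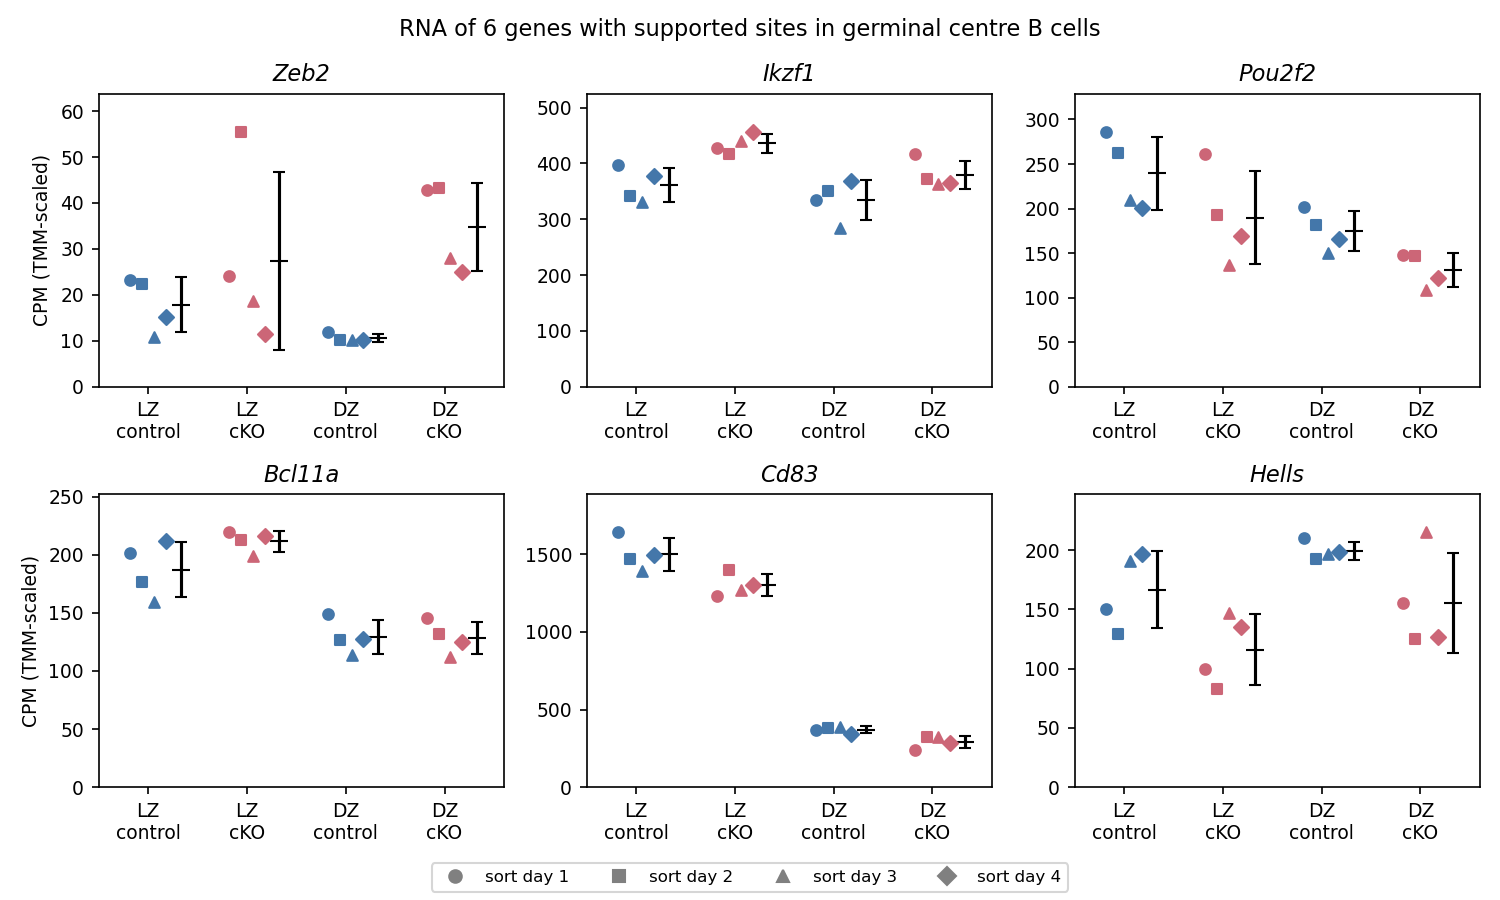
RNA level (CPM, y axis from 0) of 6 genes with supported sites in each library, blue for control and red for cKO, with a symbol per sort day and the mean ± SD of each group (n = 4) in black. Zeb2 in the dark zone lies at 10.1 to 11.8 CPM in control and at 25.1 to 43.4 CPM in cKO, while Bcl11a overlaps in both zones and Pou2f2 and Cd83 are lower in cKO on each sort day.

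None of the genes that led by number of sites was called in either zone by the main edgeR fit. With the sort day as a block, edgeR called Zeb2, Ikzf1 and Pou2f2 among them, as given above. Cdk8 was at 23 ± 3.44 CPM in LZ control (SD, n = 4), and at 24.8, 21.2, 23.7 and 20.3 CPM in the LZ cKO libraries, which overlap, a log2 fold change of -0.03 ± 0.192, and its dark zone fold change was 0.06 ± 0.192. Eif4g2 was at 1508 ± 213 CPM in LZ control and 1603 ± 356 CPM in LZ cKO (SD, n = 4), a log2 fold change of 0.09 ± 0.159, and at 0.05 ± 0.159 in the dark zone. Vmp1 had log2 fold changes of -0.10 ± 0.130 and 0.01 ± 0.130. The adjusted p of the main edgeR fit was 0.833 or more for Cdk8, Eif4g2 and Vmp1 in both zones. Ttyh1 lay between 0.0997 and 1.42 CPM in all 16 libraries and Clec2g between 0.165 and 1.74 CPM. The dark zone log2 fold change of Clec2g was -1.24 ± 0.647 (adjusted p = 0.508 in edgeR).

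For 8 supported genes all light zone cKO libraries lay above the control libraries, as given above, where 8.65% of all genes did not overlap. Of the 8, 3 belong to the lists of RNA-binding proteins and B cell receptor signalling, and none of these 3 was called. Mbnl1 was at 729, 718, 659.7 and 754 CPM in LZ control and 767, 848, 877 and 799 CPM in LZ cKO libraries, with no overlap and a log2 fold change of 0.20 ± 0.0694 (adjusted p = 0.198 in edgeR). In the dark zone its fold change was -0.05 ± 0.0694, and the difference between zones had an unadjusted p of 0.0213 in edgeR. Ptprc was at 1318, 1298, 1326 and 1341 CPM in LZ control and 1403, 1702, 1681 and 1417 CPM in LZ cKO, a log2 fold change of 0.23 ± 0.0877 (adjusted p = 0.244 in edgeR). Srsf11 was at 367, 379, 342 and 365 CPM against 431, 398, 384 and 413 CPM, a log2 fold change of 0.16 ± 0.0746 (adjusted p = 0.366 in edgeR). Srrm2, Bank1, Swap70 and Chd2 overlapped in both zones, with log2 fold changes of -0.03, 0.17, -0.06 and 0.45 in the light zone and -0.17, -0.07, -0.09 and 0.41 in the dark zone. Over the whole lists, the genes called among 58 tested of B cell receptor signalling were 2 up and 2 down in each zone. Cd79a, whose allele carries Cre in the cKO mice, was among those called in each zone. Among 70 tested RNA-binding proteins 1 was up and 1 down in each zone, namely Ptbp2 and Ptbp1. The share called over all tested genes was 1.08% in the light zone and 0.627% in the dark zone.

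Some further genes, chosen here for an unadjusted p under 0.05, were outside the rule for naming genes. Cd83, a surface marker of light zone cells, was lower in cKO on all 4 days in both zones. It was at 371, 383, 388 and 342 CPM in DZ control and 238, 323, 323 and 285 CPM in DZ cKO libraries, a log2 fold change of -0.34 ± 0.0926, with an adjusted p of 0.115 in edgeR, 0.0486 with the block and 0.0253 in DESeq2. In the light zone it was -0.20 ± 0.0924 (adjusted p = 0.357 in edgeR). Bcar3, an adaptor of Cas proteins, was at 183, 234, 217 and 242 CPM in DZ control and 178, 163, 183 and 182 CPM in DZ cKO, a log2 fold change of -0.31 ± 0.0851 (adjusted p = 0.12 in edgeR, 0.0372 with the block and 0.0282 in DESeq2). Hells, a chromatin remodeller of dividing cells, was at 150.1, 129.6, 190.4 and 197 CPM in LZ control and 99.6, 83.0, 147 and 135 CPM in LZ cKO, a log2 fold change of -0.52 ± 0.196 (adjusted p = 0.237 in edgeR and 0.0461 with the block).

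Pgap6, which acts on GPI-anchored proteins, was at 16.5, 22.8, 22.8 and 25.6 CPM in LZ control and 37.0, 36.4, 29.1 and 31.2 CPM in LZ cKO libraries. The log2 fold change was 0.61 ± 0.178, with an adjusted p of 0.124 in edgeR and 0.0297 in DESeq2. Ogt, the only enzyme that adds O-GlcNAc to nuclear and cytoplasmic proteins, was higher in cKO on all 4 days in both zones, with log2 fold changes of 0.23 ± 0.102 and 0.25 ± 0.102 (adjusted p of 0.346 and 0.336 in edgeR). A530032D15Rik was likewise higher on all 4 days, by 0.45 ± 0.153 and 0.33 ± 0.154, and A630001G21Rik was lower in the dark zone, by -0.40 ± 0.158 (adjusted p = 0.315 in edgeR). Dennd4a and Lrrc8c, the latter a subunit of volume-regulated anion channels, had log2 fold changes of 0.30 ± 0.128 and 0.31 ± 0.138 in the light zone.

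Of the 44 genes, 4 had a dark zone log2 fold change beyond 1 in size, where 11.7% of all tested genes did. None did in the light zone, against 9.66% of all tested genes. Besides Zeb2, those of the dark zone were low in counts. Tlcd4 was listed at 0 in all 4 DZ control libraries and at 0.458, 0.789, 3.52 and 0 CPM in DZ cKO. The DZ cKO mean was 50.5-fold a floor of 3 counts over the control group, and 17.6-fold without DZ cKO replicate 3. These bounds are of group means and do not cover the spread between libraries. The adjusted p was 0.231 in edgeR and 0.0367 in DESeq2. With Tlcd4 at that bound the dark zone median of the 44 genes was still 0.00. Dapk1 lay between 0 and 0.891 CPM in DZ control and between 0.0351 and 4.26 CPM in DZ cKO, and Clec2g between 0.399 and 1.74 CPM and between 0.175 and 0.886 CPM.

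For the difference of the cKO effect between zones, edgeR called 0 of the 44 genes and 0 of all 15789 (0%), and DESeq2 called 0 of the supported genes (0.0242% of the genes for which it gave a p). The unadjusted edgeR p was under 0.05 for 2 of 44, Mbnl1 and Tlcd4, against 2.95% of all genes.

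Widening the rule brought in called genes. Of the genes with a site supported by at least 4 lists, 190 were tested, and edgeR called 5 in the light zone (2.63%) and 2 in the dark zone (1.05%), against 61 (1.24%) and 49 (0.994%) of the 4931 tested genes with any gene-body site. Lmo2, the gene of a LIM-domain bridging factor of transcription complexes, rose in both zones, by 0.61 ± 0.0965 on the log2 scale in the light zone (adjusted p = 0.00605 in edgeR) with 0.92 ± 0.0973 for dark zone cells (adjusted p = 0.000146). Arhgef1, a guanine nucleotide exchange factor of lymphocytes, rose in the light zone by 0.56 ± 0.112 (adjusted p = 0.0279 in edgeR). H2afy and Rftn1 fell in the light zone, by 0.32 and 0.36 on the log2 scale, and Sp100, a nuclear body protein, fell in the dark zone by 0.50 ± 0.0876 (adjusted p = 0.0132 in edgeR). None of these is among the 48 genes with full support.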

How the data were processed

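RNA was measured in 16 libraries and PTBP1 crosslinking in 5. The deposited RNA values are raw counts per Ensembl gene. The submitters' processing notes name Trim Galore 0.4.2, HISAT2, HTSeq, Bowtie and GRCm38, without roles. Whether counting used strand was not stated, so genes and their antisense partners cannot be told apart in the RNA data. Lines that name no gene held 41.4% to 49.8% of the entries and were left out. The deposited iCLIP score is a signed cDNA count per position, positive for the plus strand. Per the file headers, a site needed an FDR below 0.05 (100 permutations, flanks of 15 nt, mm10, Ensembl release 75). There are 5 replicate lists and 1 list of their sum. No control immunoprecipitation was used here.

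Bases were read within 14 nt of a site where a promoter window allowed it. Gene spans were those of the RefSeq table (GRCm38.p6). Genes were tested with edgeR 4.0.16 (R 4.3.3) by two-sided quasi-likelihood tests in 1 robust model of all 16 libraries, after TMM scaling and edgeR's filter at 10 counts, with Benjamini-Hochberg adjustment over 15789 genes, after a test on simulated data. The common biological coefficient of variation was 40.3%. DESeq2 1.42.0, other scalings, filters, left-out libraries and a sort-day block were alternatives. Values are TMM-scaled CPM, and fold changes are log2 of cKO over control ± SE. All 48 genes were matched to a count row, 2 (Pgap6 and Tlcd4) by an older symbol. Sites were handled with Python 3.11.15 and pandas 2.3.3. Intervals cover counting error and library spread only.

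The replicate numbers of the RNA libraries mark the sort day, per the labels, so they pair the libraries; deviations of same-numbered libraries correlated at 0.0944 to 0.39, and for all 6 group pairs the best match of 4 of 4 libraries was the one of the same day. No 2 libraries of a group agreed within sampling noise (chi-square per degree of freedom of 23.8 to 183).

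Genes were named by a rule: the 10 with the most supported sites (11 with ties), those of the 10 highest sites, those called in a zone, and up to 4 per pathway list. Some genes are counted but not reported by name here. Sites, genes, gene lists and this rule were chosen with earlier results of these data known.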

Additional observations from a re-analysis of the deposited data

Results flagged for a closer look

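Of 118 groups of libraries and clusters examined for a single library far from the others, 7 were flagged, and chance flags about 5% of such groups. The Eif4g2 cluster of 65 sites held 110.9 of every 1000 cDNAs in iCLIP replicate 1, against 26.04 to 47.4 in the other 4 replicates.

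In dark zone cKO libraries, A630001G21Rik was at 60.4 CPM in replicate 3 against 80.6 to 81.0 in the others, Eif4g2 at 2223 CPM in replicate 3 against 1773 to 1806, and Ikzf1 at 417 CPM in replicate 1 against 364 to 373. Zeb2 was at 11.8 CPM in DZ control replicate 1 against 10.1 to 10.3 in the other control libraries, and each of these was below the lowest cKO library. Lrrc8c was at 57.8 CPM in LZ control replicate 4 against 62.3 to 62.7. Tlcd4 was at 1.42 CPM in LZ cKO replicate 3 and at 0 in the other 3.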

How the results depend on the processing

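The number of supported sites was 129 at a distance of 0 nt, 205 with at least 10 pooled cDNAs and 4123 (198 genes) with at least 4 lists, against 1003 (48 genes); leaving out 1 replicate gave 1040 to 3677 sites and 52 to 165 genes, the highest without replicate 3. Other distances, end margins and span limits stayed within 1.5 times of the main counts. In the light zone the main fit called 0 of 44 genes. DESeq2 called 1, with 2.36% of all genes called, and the replicate block 3, with 5.5% of all genes called. The 4-list rule gave 5 of 190 tested genes, none of them among the 48, and leaving out libraries or sort days gave 0. In the dark zone the counts were 4 with DESeq2 (1.98% of all genes), 4 with the replicate block (3.27%) and 2 of 190 with the 4-list rule. They were 1 with a minimum count of 50 (119 of all 12123 genes) and 1 with the 8 libraries of the zone alone (52 of all 14550). Leaving out libraries gave 0 to 1 (Zeb2 without LZ cKO replicate 2 or 4, Bcar3 without DZ control replicate 1). The replicate block called Ikzf1, Hells and Pou2f2 in the light zone and Zeb2, Bcar3, Cd83 and Pou2f2 in the dark zone, and no gene for the difference between zones. The light zone median of 0.09 was 0.0304 with the 4-list rule, 0.00712 without the clusters over small RNA genes, and 0.0326 to 0.121 with libraries left out; the dark zone median was -0.04 to 0.05 with libraries left out. The cause of these shifts was not tested.

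Of 54 pairs of a named gene and a zone, 40 kept their sign in all alternatives run, and the other 14 changed sign in 1 or more. The main fit called none of the 54 pairs, so there was no called main value to reverse. Some of the genes followed were chosen for an unadjusted edgeR p under 0.05, so the count of 40 is not free of that choice. Sequence was not compared in other windows, with 1 site per cluster or for higher sites alone, since 2 supported sites had sequence at hand. The shallow replicate 3 and heights of 1 to 3 cDNAs limit what can be said of single sites.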
